A study of Mus musculus with 18 samples.

Results

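The cells described here were mouse BM HPs that carried the message of the platelet von Willebrand factor receptor. They were chosen as hematopoietic cells with 3 or more unique molecular identifiers (UMIs, each a counted mRNA molecule) summed over Gp9 and Gp1bb, which encode glycoprotein IX and glycoprotein Ib beta. The rule also named Gp6, the collagen receptor glycoprotein VI, which was not analysed here. In all, 155 of the 20982 HPs met the rule, in a series of 56201 cells. The rule read the RNA of these cells, so every comparison of their RNA with other HPs is a description without a test.

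HPs were CD45+ Lineage- c-Kit+ BM cells of C57B6/J mice, and no group carried an allele or a treatment. E16.5 had 2 libraries, and E18.5, P0 (the day of birth) and adults had 1 each. Each library held cells pooled from several mice, so the spread between animals was not measured and stages were not tested against each other. Each cell also carried counts of antibody tags, which measure surface proteins. The sort kept c-Kit+ cells without mature lineage markers, so mature megakaryocytes were not its target.

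Megakaryocytes are the large marrow cells that shed platelets. They arise from a bipotent megakaryocyte and erythroid progenitor, and in part directly from stem cells, under the transcription factors GATA1, FLI1 and RUNX1. Their products include alpha granule proteins such as platelet factor 4 (Pf4), adhesion receptors such as integrin alpha IIb (Itga2b, the CD41 antigen), and signals that act on stem cells in the niche.

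The share of selected cells was higher in each later library from E16.5 to P0 and lower in the adult library. None of 560 HPs met the rule in the first E16.5 library, which allows a share of up to 0.536% as 3 of 560 cells (exact 95% upper limit 0.657%), and 4 of 4752 did in the second (0.0842%). The share was 0.949% at E18.5 (33 of 3477 HPs; exact 95% interval 0.654% to 1.33%). It was 1.56% at P0 (97 of 6208; 1.27% to 1.90%) and 0.351% in adults (21 of 5985; 0.217% to 0.536%). These Clopper-Pearson intervals, like all intervals below, cover counting error only, and cells of 1 library vary more than counting does. The E18.5 and P0 intervals overlapped slightly, and the adult interval lay below both.

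**Figure D1:**
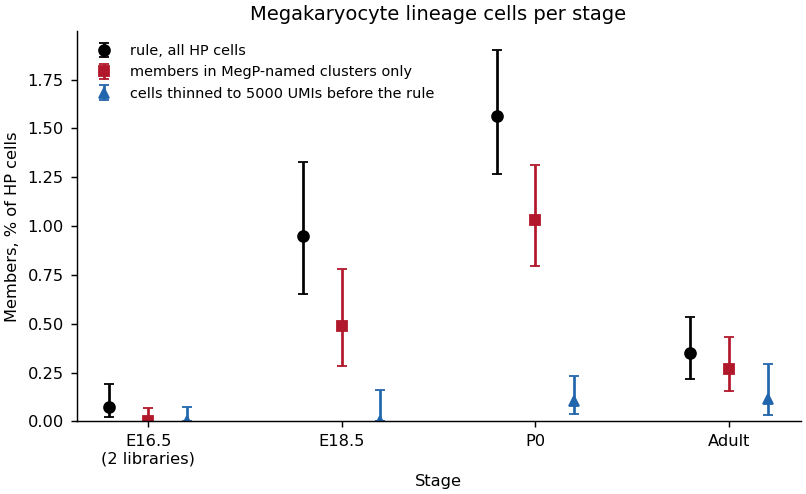
Share of HPs that met the rule (y axis, percent) at each stage (x axis), with exact 95% intervals for counting error. Over both E16.5 libraries the share was 0.0753%, and the later stages gave 0.949% (E18.5), 1.56% (P0) and 0.351% (adult), and the other markers give the shares under the further settings named in the legend. No E16.5 cluster has a MegP name, so the marker for MegP-named clusters was fixed in advance at that stage.

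A rule on a UMI number follows depth, and depth differed between the libraries. The median HP held 12364 UMIs at E18.5, 19447.5 at P0 and 6747 in adults, whereas the median selected cell held 37393, 22004 and 21087. When cells were thinned to 5000 UMIs before the rule was applied, and the 1144, 550 and 2496 cells below that depth were left out, 0 of 2333 cells passed at E18.5, 6 of 5658 at P0 (0.106%) and 4 of 3489 in adults (0.115%). With so few cells left, no order of the stages is read at this depth. Just inside the rule, with exactly 3 UMIs, lay 17 cells at E18.5, 52 at P0 and 13 in adults. Just outside, with 2 UMIs, lay 52, 130 and 26 cells. The highest sums were 9, 11 and 6 UMIs.

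The libraries shared 1234 cell barcodes over all pairs of HP libraries, 375 of them between E18.5 and adult. Cells with a shared barcode made up 59.5% of the first E16.5 library, 11.1% of E18.5, 3.87% of P0 and 11.8% of the adult. Their median depth was 51910 UMIs at E18.5 but 619 at P0 and 553.5 in adults. They included 6 selected cells at E18.5 and none elsewhere, and no barcode was selected in both of its libraries. Without these cells the share was 0.874% (E18.5), 1.63% (P0) and 0.398% (adult).

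Most selected cells lay in the clusters that the deposited annotation names for megakaryocyte progenitors (MegP). At P0, 64 of the 97 lay in MegP1, at E18.5 17 of the 33 lay in a joint erythroid and megakaryocyte cluster (EryP/MegP), and in adults 16 of the 21 lay in MegP2. They made up 9.33%, 8.29% and 3.84% of those clusters. At E18.5 and P0 the rest lay mainly in HSPC clusters, with 12 cells in HSPC2 at E18.5 and 20 over HSPC2, HSPC3 and HSPC4 at P0. A further 13 P0 cells were spread over 9 myeloid, mast cell and lymphoid clusters. In the adult, 3 lay in the erythroid cluster EryP2.

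The megakaryocyte label fitted the cells inside the MegP clusters better than those outside. In the adult, the 16 MegP2 cells had 8545 CPM of Pf4 (counts of UMIs summed over cells, per 1000000 summed UMIs), 329 CPM of Itga2b and 157 CPM of Treml1. The 5 adult cells outside MegP2 had 0 UMIs of all 3 genes. At P0, Pf4 was at 1599 CPM in the 64 MegP1 cells and at 26 CPM in the 33 outside, while Itga2b was at 149 and 44.4 CPM. At E18.5 the gap was smaller, with Pf4 at 88.7 and 54.5 CPM and Itga2b at 61.0 and 11.7 CPM in the 17 and 16 cells. These 2 Pf4 levels rest on single cells, which held 49 of the 61 UMIs inside and 23 of the 28 outside. The whole set is therefore called Gp9-selected cells below.

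The 4 cells of the second E16.5 library were too few to describe as a group. They held 7, 4, 4 and 3 UMIs of Gp9 and 0, 0, 5 and 4 UMIs of Pf4. HSPC1 held 2 of them and the other 2 were annotated TCell3, yet CD3 genes gave at most 1 UMI in any of the 4. Treml1, a receptor of platelet granules, gave 2, 0, 3 and 13 UMIs.

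Among the receptors, the rule rested mostly on Gp9. Gp9 was detected in each selected cell, with levels of 105 CPM at E18.5 (126 UMIs, 95% interval 87.4 to 125), 160 CPM at P0 (369 UMIs) and 134 CPM in adults (60 UMIs), against 3.54 to 7.46 CPM in other HPs. Gp1bb reached 4.16, 9.10 and 40.1 CPM, and was found in 2 of 33, 17 of 97 and 10 of 21 cells. Gp1bb (GENCODE M21, GRCm38, chr16:18620317-18622403, minus strand) overlaps Sept5 (chr16:18620502-18629954) on the same strand, so Gp1bb may be undercounted. This was not tested. Sept5 itself gave 0, 1 and 0 UMIs in the 3 sets.

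Of the receptor partners that the rule did not use, Gp5, the glycoprotein V chain of the same complex, lay at 21.6 CPM at E18.5, 22.5 CPM at P0 and 64.5 CPM in adults. Fcer1g, the signalling chain that pairs with glycoprotein VI but also serves immunoglobulin receptors of myeloid cells, lay at 61.6, 129 and 109 CPM. Other HPs held more of it at each stage, at 490, 245 and 247 CPM. F2r, a thrombin receptor, was at 113, 108 and 107 CPM in summed UMIs, while the median cell held 47.0, 91.8 and 79.3 CPM. Gp5 and the other genes below 100 CPM at every stage were named after their values were seen.

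Treml1 and the integrin chain Itga2b were higher at P0 than at E18.5, and the adult values are given beside them. Treml1 was at 28.3 CPM at E18.5 (19.6 to 39.5), 62.0 CPM at P0 (52.2 to 73.0) and 116 CPM in adults (86.4 to 152). With the rule at 5 UMIs it was at 39.1, 125 and 67.3 CPM, so the adult value then lay below that of P0. Itga2b was at 40.0 CPM (29.5 to 53.0), 107 CPM (94.1 to 121) and 243 CPM (199 to 293). The E18.5 and P0 intervals of both genes did not overlap, but each stage was 1 library. Other HPs held 12.9, 13.3 and 14.8 CPM of Itga2b. Cd9, a tetraspanin of the platelet surface, was at 105, 197 and 343 CPM, and Itgb3, the partner chain of Itga2b, was at 13.3, 24.7 and 42.3 CPM.

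The granule gene Pf4 had the widest range of levels over the 3 stages among the platelet genes described here, and it was unevenly spread over cells. It was at 74.1 CPM at E18.5 (89 UMIs, 59.5 to 91.2), 970 CPM at P0 (2237 UMIs, 930 to 1011) and 6306 CPM in adults (2834 UMIs, 6076 to 6543). A Pf4 UMI was present in 12 of 33 cells at E18.5 (36.4%), 54 of 97 at P0 (55.7%) and 16 of 21 in adults (76.2%). The lowest cell held 0 UMIs at each stage, the median cell held 0, 1 and 31, and the highest held 49, 581 and 644. The 10 highest of the 97 P0 cells held 87.2% of the Pf4 UMIs of that stage, and the 3 highest of 33 held 87.6% at E18.5. The P0 level was thus set by few cells, whereas 13 of the 21 adult cells held 10 or more UMIs.

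**Figure D2:**
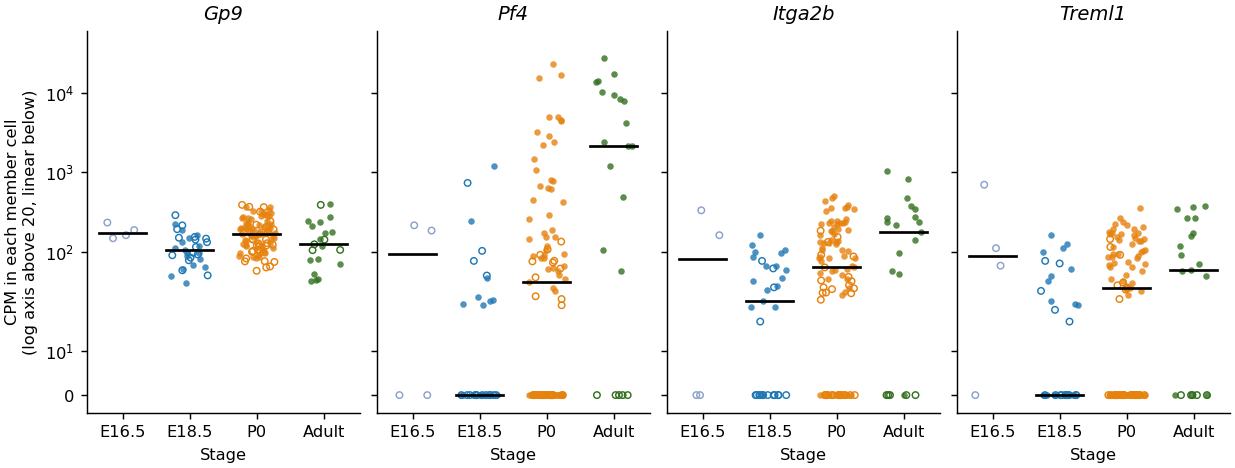
CPM of single genes in each selected cell (y axis, logarithmic above 20 CPM and linear below), by stage (x axis), 1 point per cell. Pf4 spans from 0 to 27613 CPM among the adult cells and is at 0 in most E18.5 cells, whereas Gp9, which the rule used, is above 0 in each cell.

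Pf4 detection was also compared at equal depth. After thinning to 2000 UMIs per cell, Pf4 was found in 12.1% of the Gp9-selected cells at E18.5, 23.7% at P0 and 61.9% in adults. Other HPs gave 7.01%, 2.52% and 2.64%, and at E18.5 their interval (6.03% to 8.10%) lay inside that of the selected cells (3.40% to 28.2%). Cells of B cell clusters, which should lack the gene, gave 1.32%, 0.783% and 0.993%, at unthinned median depths of 22806, 13861 and 2907 UMIs, and 1006, 309 and 1498 other HPs too shallow to thin were left out. The unthinned shares were 36.4%, 55.7% and 76.2%.

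Pf4 was not particular to the Gp9-selected cells. In the remaining HPs it stood at 211 CPM at E18.5, above the 74.1 CPM of the selected cells, at 34.5 CPM at P0 and at 94.9 CPM in adults. At E18.5, 67.9% of those UMIs came from cluster Mono1ii, which held 5135 CPM of Pf4 and 1871 CPM of C1qb, a complement gene of macrophages, and 0 UMIs of Gp9. At P0, 71.3% came from Mono1. In the adult, 93.2% came from MegP2 cells that did not meet the rule, which held 1418 CPM. When Pf4 was added to the rule, the share of HPs that passed became 4.95% (E16.5), 6.56% (E18.5), 3.99% (P0) and 2.17% (adult).

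Other granule and secretion genes spanned narrower ranges. Nrgn, a calmodulin-binding protein, was at 181, 247 and 383 CPM in the E18.5, P0 and adult cells. Rab27b, which serves the docking of granules, was at 32.5, 63.3 and 125 CPM, and Vwf, the von Willebrand factor gene, at 4.99, 25.6 and 91.2 CPM. Tgfb1, a growth factor stored in alpha granules, was at 398, 362 and 271 CPM. Srgn, the granule proteoglycan of many blood cells, was at 679, 1116 and 745 CPM. F13a1, clotting factor XIII, went the other way, at 25 CPM at E18.5, 2.17 CPM at P0 and 0 of 449402 UMIs in adults.

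**Figure D3:**
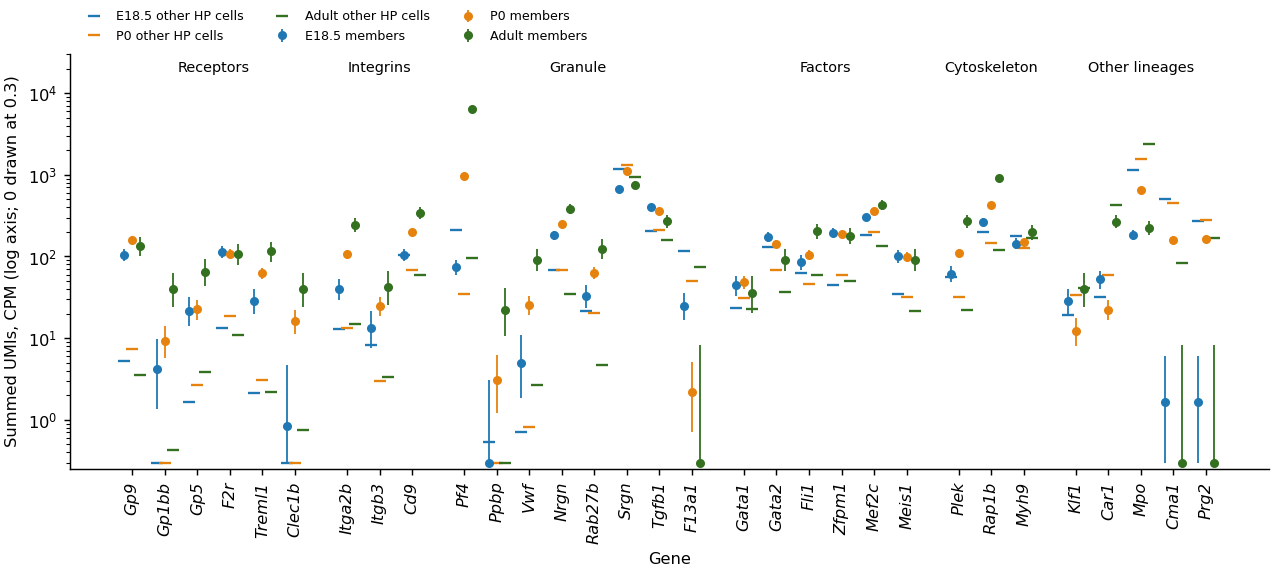
Level of listed genes in Gp9-selected cells (points with exact 95% Poisson intervals) and in other HPs (dashes) of the E18.5, P0 and adult libraries; the y axis is CPM of summed UMIs on a log scale, with 0 drawn at 0.3. Pf4 ranges from 74.1 to 6306 CPM in the selected cells, while Zfpm1 stays between 180 and 196 CPM.

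The upstream sequences of 3 genes, Gp9, Pf4 and Treml1, are shown here as a description. Gp9 was used by the rule, so its level in the selected cells is no reason in itself. Pf4 was higher in these cells than in other HPs at P0 and in adults but lower at E18.5, and Treml1 was higher in adults. The upstream sequence of Itga2b is not shown, because its window overlaps an Itga2b exon in GENCODE M21. Each is the 250 bases before the annotated transcription start, from RefSeq on GRCm38.p6, written 5′ to 3′ on the strand of the gene. Capitals mark GATAA, the core of a GATA site, and GGAAG, the core of an ETS site (the family of FLI1), or their reverse complements; TGAGTCA, the core of an NF-E2 site, was also searched on both strands. The windows lie at chr6:87777820-87778069 (plus strand) for Gp9, chr5:90772185-90772434 (plus) for Pf4 and chr17:48359666-48359915 (plus) for Treml1.
Gp9: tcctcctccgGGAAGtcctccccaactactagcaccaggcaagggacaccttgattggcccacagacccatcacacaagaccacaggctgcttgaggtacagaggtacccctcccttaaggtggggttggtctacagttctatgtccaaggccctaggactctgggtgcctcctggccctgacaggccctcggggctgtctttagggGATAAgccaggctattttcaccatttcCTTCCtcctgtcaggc
Pf4: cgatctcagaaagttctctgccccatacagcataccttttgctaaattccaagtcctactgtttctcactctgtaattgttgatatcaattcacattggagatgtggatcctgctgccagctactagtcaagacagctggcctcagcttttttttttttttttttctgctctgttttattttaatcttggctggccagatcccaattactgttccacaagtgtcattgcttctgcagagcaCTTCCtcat
Treml1: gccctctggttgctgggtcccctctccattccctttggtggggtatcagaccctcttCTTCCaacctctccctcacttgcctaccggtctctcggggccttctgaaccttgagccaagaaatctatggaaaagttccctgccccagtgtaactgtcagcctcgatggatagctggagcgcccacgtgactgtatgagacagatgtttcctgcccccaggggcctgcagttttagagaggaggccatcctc

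The Gp9 window held 1 GATAA, 43 to 39 bases before the start, and 2 GGAAG. The Pf4 and Treml1 windows held 1 each. No TGAGTCA was found in the 3 windows. Among all 32851 promoter windows of the table, 22.6% held GATAA, 64.1% held GGAAG and 4.46% held TGAGTCA. The 48 windows of 42 matched genes, of 54 on the receptor, integrin and granule lists, held them in 31.2%, 81.2% and 4.17% of cases. Such short matches are a description of letters and do not show a bound site.

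None of the 16 listed transcription factors met the criteria for a difference between E18.5 and P0 given below. Zfpm1, the GATA1 cofactor FOG1, was at 196, 189 and 180 CPM in the same order, against 45.0 and 58.8 CPM in other HPs at E18.5 and P0. Gata1 was at 44.1, 48.6 and 35.6 CPM. Gata2, which is active before GATA1 takes over, was at 175, 143 and 91.2 CPM. Fli1 was at 84.9, 105 and 205 CPM.

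Among cytoskeletal and signalling genes, Plek, a substrate of protein kinase C in platelets, was at 61.6 CPM at E18.5, 110 CPM at P0 and 271 CPM in adults. Rap1b, the small GTPase that activates platelet integrins, was at 264, 432 and 903 CPM. Angpt1, a niche factor that acts on stem cells, was at 134, 141 and 189 CPM. The genes with the highest ratios of selected cells to other HPs, a contrast that the rule used, included at P0 Pf4 (28.1 times), Gp9 (21.4) and Itga2b (8.03), at E18.5 Gp9 (19.8), F2r (8.62) and Zfpm1 (4.37), and in adults Pf4 (66.5), Treml1 (53.5), Cavin2 (43.1) and Gp9 (37.7).

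Over all genes with 20 or more UMIs in the higher of the 2 sets, 137 genes were at least 2-fold higher in the selected cells than in other HPs at E18.5 with intervals apart (1.24% of those compared), 205 at P0 (1.71%) and 145 in adults (1.56%). Nothing is read from these counts or from the list counts that follow, since the rule used this contrast. The share of all genes that were lower was not counted, so the lower counts on the lists cannot be weighed. Of the 18 listed signal receptors, 11 could be compared at E18.5, with 5 higher and 1 lower, 16 at P0, with 11 higher, and 6 in adults, with 3 higher. The granule list had 4 higher and 5 lower of 17 at E18.5, with a median ratio of 0.703, 9 higher and 1 lower of 19 at P0, and 6 higher and 1 lower of 13 in adults. Integrins and tetraspanins had 2 higher and 2 lower of 6 at E18.5, 3 higher of 7 at P0, and 3 higher and 1 lower of 5 in adults. Of the 16 transcription factors, 6 of 16 compared were higher at E18.5, 5 of 16 at P0 and 7 of 14 in adults, and none was lower.

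Only E18.5 and P0 held 30 or more selected cells, so the comparison across all genes was made between these 2 libraries. A gene was compared when it had 100 or more CPM and 20 or more UMIs in the higher library. It was counted as different when the levels were at least 2-fold apart with Poisson 95% intervals that did not overlap. Of 1582 genes compared, 23 were higher at P0 (1.45%) and 4 were lower (0.253%). Over the 7421 genes with the UMI minimum alone, the median log2 ratio was 0.00. With 5 or more UMIs of Gp9 and Gp1bb as the rule (6 and 23 cells), 42 genes were higher and 26 lower. Without the CPM minimum, 127 of 7421 genes were higher (1.71%) and 64 lower (0.862%).

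The genes with the largest P0 to E18.5 ratios were mostly genes of other blood lineages. Prg2, the major basic protein of eosinophils, had 2 UMIs at E18.5 and 378 at P0, a ratio of 98.4 (interval 27.1 to 816). Cma1, a mast cell chymase, had 2 and 372 UMIs (96.9, 26.6 to 803), and the neutrophil elastase gene Elane had 6 and 754 (65.5, 29.9 to 179). S100a8, a calcium-binding protein of neutrophils, followed at 20.1 times, Ms4a3, a gene of granulocyte and monocyte progenitors, at 15.7, and Ctsg, cathepsin G, at 13.8. Pf4 was the seventh of these genes, at 13.1 times (10.6 to 16.4). Under the alternatives its ratio ran from 9.38 with the rule at 5 UMIs to 110 without cells of another lineage, where it rested on 4 UMIs at E18.5 and 1612 at P0. The mast cell genes Cpa3 and Hdc were 9.62 and 8.61 times higher (29.9 and 109 times without cells with shared barcodes, where Hdc had 1 UMI at E18.5), and Prtn3, proteinase 3, was 4.55 times higher.

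These myeloid transcripts sat in few of the P0 cells. Prg2 was found in 15 of the 97 P0 cells, and the 10 highest held 98.7% of its UMIs. Most lay in 2 cells, with 204 and 161 of its 378 UMIs. For Cma1, 2 cells held 247 and 105 of 372 UMIs. The highest single cell held 451 of 541 UMIs for S100a8 and 339 of 754 for Elane. The ratios of these genes and their intervals thus rest on very few cells. The 10 highest held 98.1% for Elane, 97.3% for Cma1 and 96.7% for S100a8. They lay mainly outside the MegP cluster: the summed neutrophil list was at 4969 CPM in the 33 P0 cells outside MegP1 and at 178 CPM in the 64 inside. The mast cell and basophil list was at 1397 and 83.1 CPM, and the eosinophil list at 510 and 10.1 CPM. For comparison, other P0 HPs held 7508, 1614 and 358 CPM of these lists. Among cells with 5 or more UMIs of Gp9 and Gp1bb, S100a8 had only 4 UMIs at E18.5 and 8 at P0, too few to read a direction. Whether a selected cell was a doublet was not tested.

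Counted by cell, 5 or more UMIs of some other blood lineage's list were present in 26 of 33 selected cells at E18.5, 56 of 97 at P0 and 21 of 21 in adults (78.8%, 57.7% and 100%). Other HPs did so in 72.9%, 84.2% and 93.1%, so nothing particular to the selected cells is read from these counts. Most came from the neutrophil list, which passed that number in 17, 49 and 21 cells. In the adult, S100a8 was found in each of the 21 cells at up to 18 UMIs, in a library whose other HPs held 14228 CPM of it. The T and NK cell list passed it in 12, 24 and 7 cells, at no more than 12, 49 and 13 UMIs in a cell. Without the cells that passed for any list, 7 remained at E18.5, 41 at P0 and 0 in adults, and 35 genes were higher and 31 lower at P0 than at E18.5.

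With the comparison kept to selected cells inside the MegP clusters (17 at E18.5, 64 at P0), an alternative chosen after seeing the data, 23 genes were again higher at P0, of which 9 were among the 23 above. Here Pf4 led at 18.0 times (14.0 to 23.7), from 61 UMIs at E18.5, 49 of them in 1 cell, to 2213 at P0. The E18.5 cluster joins erythroid and megakaryocyte progenitors, whereas P0 has a separate erythroid cluster, EryP1. These ratios therefore do not compare like sets of cells. Cavin2, a caveolar protein known as a platelet phosphatidylserine binder, was 6.39 times higher, Btg2, an antiproliferative gene, 4.12 times and Serpina3g, a serine protease inhibitor, 3.47 times. Itga2b was 2.44 times and Plek 2.21 times higher. The cell cycle inhibitor Cdkn2d was 2.52 times higher. None of the 3 leading myeloid genes, Prg2, Cma1 and Elane, met the criteria any longer. The mast cell genes Cpa3 (3 and 57 UMIs) and Hdc (1 and 23 UMIs) still had ratios of 9.45 and 11.4 there, at levels below the 100 CPM minimum. Without cells of another lineage both were at 1.09 times, from 1 and 4 UMIs each. That setting removes cells by UMIs of these genes among others, so nothing is read from this fall.

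**Figure D4:**
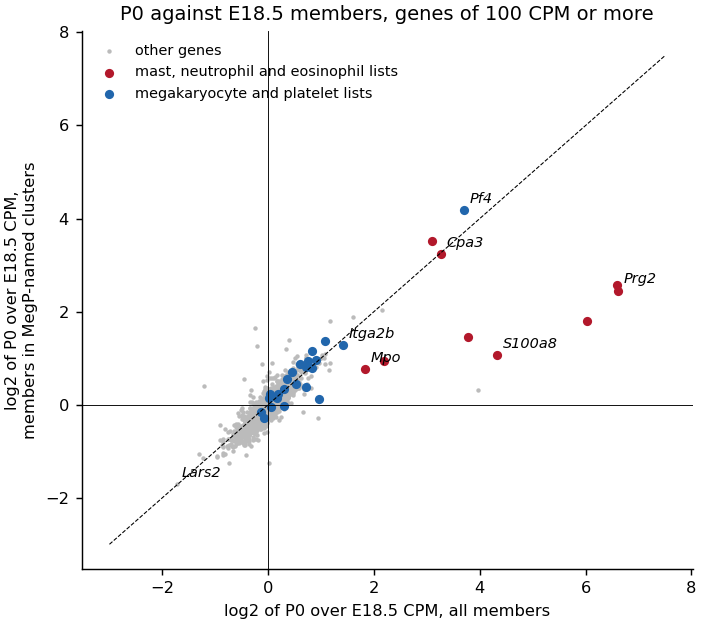
log2 ratio of P0 over E18.5 CPM for genes at 100 CPM or more, over all selected cells (x axis) and over those inside the MegP-named clusters (y axis); the dashed line marks equal ratios, blue points are megakaryocyte and platelet genes and red points mast cell, neutrophil and eosinophil genes. Pf4 is high on both axes, at 13.1 and 18.0 times, whereas Prg2 is 98.4 times higher on the x axis and 5.47 times on the y axis, where it rests on 1 and 11 UMIs.

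Of the 4 genes lower at P0, 1 was Gm42418, an rRNA-like transcript that the naming rule left out. Lars2, a mitochondrial leucyl-tRNA synthetase, was 3.32 times higher at E18.5 than at P0 (166 and 96 UMIs) and was 2.69 times higher at E18.5 in other HPs as well. Cbfa2t3, a corepressor of blood stem and progenitor cells known as ETO2, was 2.35 times higher at E18.5 and Ifi203, an interferon-induced gene, 2.33 times. Inside the MegP clusters Ifi203 turned, at 1.33 times higher at P0. Inside the MegP clusters 14 genes were lower at P0, 3 of them shared with these 4, and among them Mt1, a metallothionein, was 2.37 times, Hells, a chromatin remodeller of dividing cells, 2.37 times and Lgals1, galectin 1, 2.12 times higher at E18.5.

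By gene list, the comparison of P0 with E18.5 was made with the UMI minimum alone and over all selected cells, of which 16 of 33 at E18.5 and 33 of 97 at P0 lay outside the MegP clusters. The granule list had 17 genes compared, 5 higher at P0 (Pf4, Vwf, Thbs1, Sparc and Timp3) and 1 lower (F13a1), with a median log2 ratio of 0.84. The signal receptors had 11 compared and 3 higher (Treml1 at 2.19 times, Clec1b, the podoplanin receptor, at 19.3, interval 3.25 to 781, and P2rx1, an ATP-gated channel, at 2.15). Thromboxane and platelet signalling had 15 compared and 3 higher (Gucy1b1, Prkcq and Grap2). Integrins and tetraspanins had 6 compared and 1 higher, Itga2b. None of 16 transcription factors, 14 cytoskeletal genes or 20 genes of respiration and glycolysis met the criteria in either direction. Against the 1.71% and 0.862% over all genes these are small counts in lists chosen with earlier results known.

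Among lists of other programmes, the cell cycle, stem cell and erythroid lists held 1 to 3 differing genes each, and most compared genes of the mast cell, neutrophil, eosinophil and B cell lists were higher at P0. Of 23 cell cycle genes, 1 was higher at P0, Cdkn2d. Among 14 stem and progenitor genes, 1 was lower, Mecom, a stem cell transcription factor, at 30.8 CPM at E18.5 and 12.6 CPM at P0. Of its 37 UMIs at E18.5, 33 lay outside the EryP/MegP cluster, and inside the MegP clusters it was at 5.81 CPM (4 UMIs) at E18.5 and 10.8 CPM (15 UMIs) at P0, with overlapping intervals. Of 9 erythroid genes, Klf1, the erythroid master factor, and Car1, a carbonic anhydrase, were lower at P0, at 28.3 and 12.1 CPM for Klf1 and 52.4 and 22.1 CPM for Car1, and Hbb-bs was higher, from 1 UMI to 24. In other HPs, Klf1 went from 19.2 to 33.3 CPM. The myeloid lists had 6 of 8 mast cell, 7 of 7 neutrophil and 3 of 3 eosinophil genes higher at P0, carried by the few cells described above, and 4 of 5 B cell genes, from 0 to 2 UMIs each at E18.5 to 34 to 43 at P0. Only 2 of the 97 P0 cells held 5 or more UMIs of the B cell list, with up to 170 in 1 cell.

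Erythroid and stem cell messages were also found in selected cells. With 3 or more UMIs over Klf1, Car1 and Epor as the mark, 12 of 33 cells at E18.5 (36.4%, 20.4% to 54.9%), 14 of 97 at P0 (14.4%, 8.12% to 23%) and 5 of 21 in adults (23.8%, 8.22% to 47.2%) also carried erythroid transcripts. Other HPs did so in 7.43%, 17.9% and 12.0%, at lower median depth. Klf1 thinned to 2000 UMIs was found in 6.06%, 2.06% and 9.52% of selected cells. Other HPs gave 1.93%, 3.95% and 4.66%, with intervals that overlapped at each stage. At least 1 UMI of the stem cell factors Hlf or Mecom was found in 21 of 33, 41 of 97 and 11 of 21 cells, against 19.1%, 29.0% and 10.3% of other HPs. After thinning to 2000 UMIs, Hlf was found in 18.2%, 3.09% and 0% of selected cells and in 5.87%, 7.60% and 4.21% of other HPs. At this depth the intervals of selected cells and other HPs were apart at E18.5 alone, and at 5000 UMIs, with 18.2% against 11.5%, they overlapped there too. Both marks together were found in 5, 6 and 2 cells. Hlf was at 63.3, 32.1 and 26.7 CPM in the selected cells, and 74 of its 76 UMIs at E18.5 lay in the 16 cells outside the EryP/MegP cluster.

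In the adult cells, globin and MHC class II messages came from single cells. Hba-a1, alpha globin, was at 826 CPM, but 98.9% of its UMIs lay in 2 of the 21 cells and 17 cells had none. Cd74, the invariant chain of MHC class II, was at 269 CPM in 5 of 21 cells, with 78.5% in 2 MegP2 cells that also held 237 and 198 UMIs of Pf4. Another MegP2 cell held 24 UMIs of Cd74 and 2 of Pf4. H2-Eb1, a class II chain, had 91.4% of its UMIs in 2 cells. The erythroid list summed to 15090 CPM in the 5 adult cells outside MegP2 and to 621 CPM in the 16 inside.

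Markers of cells that the gate should exclude differed between the stromal and the endothelial list. The 10 stromal genes summed to 3.33 CPM at E18.5, 5.64 CPM at P0 and 13.4 CPM in adults, from 4, 13 and 6 UMIs. Of the stromal genes compared with other HPs, 0 of 6, 0 of 5 and 0 of 6 were higher in the selected cells, and 1, 1 and 0 were lower. Their median ratios of 1.76, 1.58 and 4.99 are not read as enrichment. With these few UMIs they depend on the floor, which sets a gene at 0 UMIs to 3 UMIs. The 8 endothelial genes summed to 216, 201 and 91.2 CPM, against 152, 201 and 68.9 CPM in other HPs, and some of these genes are also used by stem cells and platelets.

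The selected cells were rarely assigned to G1 by the deposited cell cycle phase. This applied to 1 of 33 cells at E18.5 (3.03%, 0.0767% to 15.8%), 2 of 97 at P0 (2.06%, 0.251% to 7.25%) and 0 of 21 in adults, against 27.6%, 15.4% and 20.5% of other HPs. Cells of the MegP clusters that did not meet the rule were in G1 in 0%, 2.57% and 29.9% of cases. The phase reads the RNA of the same cells and depends on their depth, which was higher in the selected cells. Mki67, a proliferation antigen, was at 402, 260 and 349 CPM and Top2a, a mitotic topoisomerase, at 433, 495 and 401 CPM. After thinning to 2000 UMIs, Top2a was found in 54.5%, 59.8% and 38.1% of selected cells and in 30.4%, 38.5% and 41.3% of other HPs. Mki67 at this depth was found in 36.4%, 30.9% and 33.3% against 26.4%, 27.0% and 38.5%, with intervals that overlapped at each stage. At 5000 UMIs the Mki67 intervals were apart at P0 alone, with 60.8% (50.4% to 70.6%) against 48.2% (46.9% to 49.5%).

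The deposited hscScore, a number per cell for likeness to stem cells, was low. Its median was -0.0047 (E18.5), -0.0017 (P0) and 0.0036 (adult), against 0.096, 0.0080 and 0.051 in other HPs. The highest selected cell scored 0.263, 0.160 and 0.0893, and the highest other HP 0.439, 0.578 and 0.517. The score was computed from RNA, so it is not independent of the rule. It was not compared at equal depth, and the selected cells were deeper than other HPs at each stage.

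The antibody tags, which the rule did not read, set the selected cells apart most by CD150. CD150 (SLAMF1) marks stem cells and megakaryocyte progenitors. At E18.5 it gave a lowest, median and highest count of 1, 45 and 215 tags in the selected cells, with a median of 2 in other HPs. At P0 the counts were 0, 28 and 143 against a median of 1, and in adults 0, 52 and 228 against 1. On the centred log ratio scale the difference in medians was 2.22, 2.25 and 2.78. Neither scale adjusts for the depth of a cell. Median RNA depth was 37393, 22004 and 21087 UMIs in selected cells and 12066, 19387 and 6685.5 in other HPs. A part of depth in these differences was not tested. The median selected cell lay above 98.4%, 95.7% and 97.4% of other HPs. In the second E16.5 library the 4 selected cells held 3, 1, 6 and 8 tags against a median of 1, a difference in medians of 0.79. Over these 4 libraries the mean difference was 2.01 ± 0.85 (SD, n = 4), above 0 in 4 of 4, with p = 0.125 in an exact two-sided sign-flip permutation test, the smallest p that 4 libraries allow. Each of the 4 libraries was of a different stage, here and for CD48 below. The SD therefore mixes stage with library, and the E16.5 value rests on 4 cells.

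CD150 followed the cluster as well as the rule. Inside the MegP clusters the selected cells had medians of 73, 40 and 58 tags from E18.5 to adult, and cells of the same clusters that did not meet the rule had 9, 12 and 33. Their median RNA depths were 41984, 20847.5 and 19790 UMIs against 46540, 23317 and 7850. Selected cells outside had medians of 22.5, 2 and 1, and cells of HSPC clusters 3, 1 and 1. In the adult the lowest MegP2 selected cell held 21 tags.

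**Figure D5:**
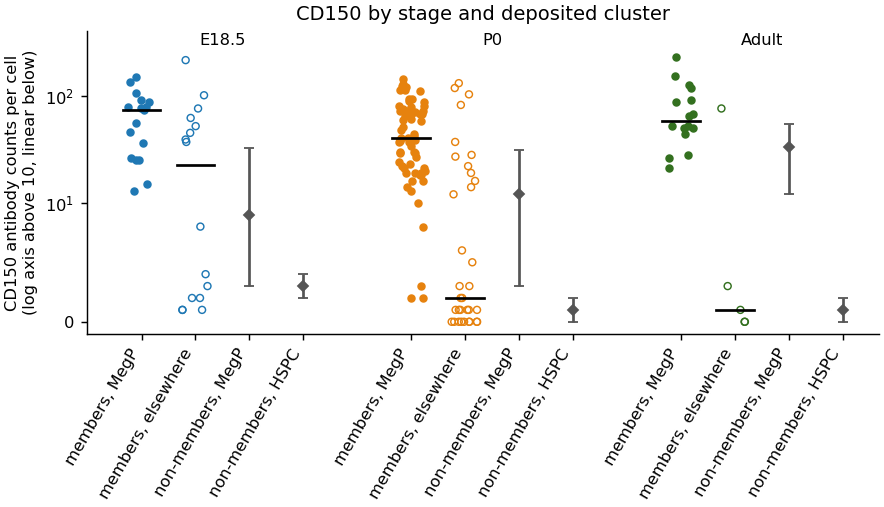
CD150 antibody counts per cell (y axis, logarithmic above 10 and linear below) for selected cells inside and outside the MegP-named clusters, other cells of those clusters and HSPC clusters, by stage (x axis). Selected MegP cells have medians of 73 (E18.5), 40 (P0) and 58 (adult) tags, above the 9, 12 and 33 tags of the other cells of those clusters.

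The remaining antibodies differed less. CD48, which marks progenitors below the stem cell, had medians of 247, 181 and 168 tags in selected cells and 88, 106 and 105 in other HPs, again without adjustment for depth. Its difference on the centred log ratio scale was 0.78, 0.33 and 0.30, and 0.19 in the second E16.5 library (mean 0.40 ± 0.26, SD, n = 4, exact sign-flip permutation p = 0.125). Sca-1 medians were 4, 3 and 4 tags against 3, 3 and 2, and CD135 (FLT3) medians were 1, 0 and 0 in both sets. Among libraries with selected cells, the CD41 tag reached 1000 counts over all HPs only in the second E16.5 library, where the 4 selected cells held 1, 0, 3 and 3 tags. No CD41 level is read for the E18.5, P0 and adult libraries, since counts below 1000 do not show that the tag was used there.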

How the data were processed

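BM HPs and stromal cells of fetal (E16.5 and E18.5), newborn (P0) and adult C57B6/J mice were profiled by droplet single-cell RNA sequencing (Chromium 3′ v3.1) with antibody tags (CITE-Seq), and only HPs were used. The authors made the deposited UMI counts with Cell Ranger 3.1.0 on mm10 and processed them in R 4.0 with Seurat 3.1.5, per the submitters' processing notes. They kept genes found in a minimum number of cells, removed the deepest cells of each sample as putative doublets, and removed cells with few UMIs or a high mitochondrial share. Antibody tag counts were deposited raw, with the counting tool not given in the sources used here. Cluster names, cell cycle phase and the hscScore, a score per HP, were deposited by the authors.

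UMIs were summed over the cells of a set within a library and divided by the summed UMIs of that set to give CPM, with exact Poisson 95% intervals, and shares were given exact Clopper-Pearson 95% intervals (Python 3.11.15, numpy 2.4.6, scipy 1.17.1, pandas 2.3.3, matplotlib 3.10.9). HP libraries held 13974733 to 127489333 UMIs. With 1 library at each stage but E16.5, stages were not tested. Antibody differences within libraries were tested over libraries by exact sign flips, added after the values were seen. A gene at 0 UMIs was set to the floor of 3 UMIs in ratios. The comparison was also run on simulated Poisson counts with known fold changes. Those counts had no spread between cells or libraries, so the run does not show how the comparison behaves with such spread. Shares of cells were thinned to 2000 UMIs per cell, and antibody counts were centred log ratio transformed within a library. No doublet caller was run here. Of 317 listed genes, 313 had a row. Listed genes at 100 or more CPM in a library were named, with the 10 genes of largest ratio each way at 100 or more CPM and 50 or more UMIs, without mitochondrial, ribosomal protein, rRNA-like (Gm42418, AY036118) and sex-linked genes, and other genes as stated. Some genes that this rule names are not reported here. The alternatives were a rule of 2 or 5 UMIs, thinning to 5000 UMIs, Pf4 in the rule, other denominators, means over cells, no CPM minimum, a 4-fold limit and leaving out cells or a library. The members and gene lists were chosen with earlier results of these data known.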

Additional observations from a re-analysis of the deposited data

Results flagged for a closer look

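Some genes lay on opposite sides of the other HPs at different stages, with intervals apart in both. None of these differences between stages was tested, because each stage compared held 1 library. Pf4 was at 74.1 CPM in the Gp9-selected cells at E18.5, below the 211 CPM of other HPs. Cluster Mono1ii held 67.9% of those other Pf4 UMIs. By detection at 2000 UMIs per cell, Pf4 was in 12.1% of selected cells and 7.01% of other HPs at E18.5, with overlapping intervals. Pf4 was above other HPs at P0 (970 against 34.5 CPM) and in the adult (6306 against 94.9 CPM). Serpine2, a protease inhibitor, was at 4.99 CPM against 15.1 CPM at E18.5 and at 107 CPM against 11.7 CPM in the adult.

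The MHC class II genes gave the same kind of turn. H2-Aa was at 0 CPM at E18.5, 0.434 CPM at P0 and 111 CPM in the adult, against 139, 53.2 and 47.5 CPM in other HPs. H2-Ab1 was at 8.32, 23.8 and 134 CPM against 156, 80.8 and 56.3 CPM, and H2-Eb1 at 0, 0.867 and 129 CPM against 104, 41.8 and 36.4 CPM. For H2-Eb1, 3 of the 21 adult cells held UMIs. Hba-a1 was at 0 CPM at P0 against 4.25 CPM and at 826 CPM in the adult against 340 CPM, with UMIs in 4 of the 21 adult cells.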

How the results depend on the processing

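Under the alternatives, 104 values were counted as unchanged, 86 moved and 3 turned. For 6 of the 104, the antibody differences on a log2 scale, direction alone was compared. Among the main values (shares of HPs, gene counts, and Pf4 levels and shares), 19 were unchanged and 38 moved. The share of HPs that met the rule moved: at E16.5, E18.5, P0 and adult it was 0.339%, 2.44%, 3.66% and 0.785% at 2 UMIs, 0.0188%, 0.173%, 0.370% and 0.0835% at 5 UMIs, 0%, 0%, 0.106% and 0.115% after thinning to 5000 UMIs, and 4.95%, 6.56%, 3.99% and 2.17% with Pf4 in the rule. Without cells of another lineage it was 0.201%, 0.660% and 0% from E18.5 to adult. Inside the MegP clusters, added after seeing the data, it was 0.489% at E18.5 and 1.03% at P0. Its 0% at E16.5 was fixed in advance, since no E16.5 cluster has a MegP name. Leaving out either E16.5 library gave 0% to 0.0842%. Genes higher at P0 than at E18.5 numbered 42 at 5 UMIs, 127 without the CPM minimum, 11 at 4-fold and 35 without cells of another lineage. Genes lower numbered 26, 64, 0 and 31, and 7 without mitochondrial, ribosomal protein and globin UMIs in the denominator, 16 after thinning and 14 inside the MegP clusters. The P0 to E18.5 ratio of Prg2 fell from 98.4 to 1.36 without cells of another lineage. Cpa3 and Hdc were at 1.09 there, in a setting that removes cells by UMIs of these genes among others. Inside the MegP clusters the ratios of Prg2, Cma1 and Elane were 5.47, 5.97 and 3.48, while those of Cpa3 and Hdc were 9.45 and 11.4. That of Pf4 ran from 9.38 at 5 UMIs to 110 without cells of another lineage. The ratio fell below 1 for S100a8 at 5 UMIs (0.831, from 4 and 8 UMIs) and for Ms4a3 without cells of another lineage (0.681, from 4 and 10 UMIs), neither of which met the criteria, and the latter setting removes cells by transcripts of the same kind. It turned for Ifi203 inside the MegP clusters (1.33). Pf4 was at 322, 3015 and 7996 CPM at 5 UMIs, and at 5782 CPM in the adult as a mean over cells. Treml1 was at 39.1, 125 and 67.3 CPM at 5 UMIs. The causes were not tested. Leaving out cells with shared barcodes, also added after seeing the data, moved 3 of 21 values, the ratios of Pf4 (9.87), Cpa3 (29.9) and Hdc (109).

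The rule lies within a few UMIs of its highest sums, and each stage but E16.5 was 1 library, so differences between stages cannot be told apart from differences between libraries. Adult values rest on 21 cells. No paired analysis was possible because the stages compared were different animals, pooled in separate libraries.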
